A study of Mus musculus with 6 samples.

Results

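Expression of 10 genes for the lecticans, link proteins and tenascins of the perineuronal net was compared between 14-day-old mouse primary somatosensory cortex with stabilised β-catenin in excitatory neurons and cortex without it. The members were found by gene symbol, and all 10 (4 lecticans, 4 link proteins and 2 tenascins) were present among 47794 genes in the table. The 3 Ovp libraries came from C57BL/6 mice with the β-cat lox(ex3) allele, a floxed exon 3 of the β-catenin gene, together with Nex-Cre. The 3 Ctrl libraries came from C57BL/6 mice of the same age with the β-cat lox(ex3) allele alone, so the floxed allele was shared by both groups. Nex-Cre was present in Ovp mice only, so stabilised β-catenin and the Nex-Cre allele itself cannot be told apart in any difference between the groups. Nex-Cre is expressed from the Neurod6 locus and recombines in excitatory neurons of the forebrain, while interneurons, astrocytes and oligodendrocytes of the dissected tissue are outside its main domain. The authors deposited 1 value per gene and group, a mean of read counts scaled per library, called scaled reads here. Whether the numbered replicates are separate animals is not stated in the labels, so the variation behind every p-value here may be technical and is that of these samples alone.

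The perineuronal net is a condensed extracellular matrix around the soma and proximal dendrites of neurons, most densely around fast-spiking parvalbumin interneurons. Hyaluronan chains at the cell surface carry chondroitin sulfate proteoglycans of the lectican family, link proteins clamp each lectican to hyaluronan, and tenascin-R ties lecticans to each other through their C-terminal ends. The matrix matures during the postnatal weeks. Neurocan, the longer versican forms and tenascin-C mark the juvenile matrix, and aggrecan, brevican, tenascin-R and the brain link proteins Hapln2 and Hapln4 mark the mature one. Closure of the critical period for sensory plasticity is associated with the assembly of these nets.

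The group totals were 18602579 scaled reads in Ovp and 19016749 in Ctrl cortex. Ctnnb1, which encodes β-catenin, had 6391 scaled reads in Ovp and 7574 in Ctrl cortex. The authors' deposited table gives p = 0.0304 for it, which did not pass after adjustment. This gene-level value also covers exons outside the removed one and therefore does not check the genotype labels. Neurod6, whose locus carries Nex-Cre, had 1199 scaled reads in Ovp and 1942 in Ctrl cortex, and the authors' deposited table gives p = 5.04e-05, which is 0.76 after adjustment. Slc17a7, the vesicular glutamate transporter that marks excitatory neurons of the labelled tissue, had 30449 scaled reads in Ovp and 31689 in Ctrl cortex. Values of single libraries were recovered from the group means where whole reads of 3 libraries fitted a mean in 1 way only. These libraries are called A, B and C within each group, and the replicate numbers of the labels cannot be assigned to them.

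No matrix gene passed the authors' test. By the authors' deposited values, 0 of 10 members had an adjusted p under 0.05, against 0% of 30152 tested genes. At an unadjusted p under 0.05 there were also 0 of 10, where the same share over all tested genes was 0.534%, and the members' count is not set apart from it. In the authors' deposited table the member p-values ran between 0.194 for Hapln2 and 0.958 for Tnr. Group means were higher in Ovp cortex for 7 members and lower for 3, with a median log2 fold change of 0.06, against -0.01 over the 26236 tested genes above 0 in both groups. The 3 members with lower Ovp means were Ncan, Hapln4 and Tnr. With the group columns divided by their totals, or with the median of abundant genes subtracted, 8 were higher and 2 lower, and Tnr changed sides. All 8 members with a mean of at least 100 scaled reads showed a difference between groups of less than 1.2-fold, as did 97.3% of the 11645 genes at that level.

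The order of the members by level was almost the same in both groups. On the scale of scaled reads per kb of annotated exon, Ncan stood at 1567 in Ovp and 1611 in Ctrl cortex, and Bcan at 1470 in Ovp and 1403 in Ctrl cortex. These levels were above those of 98.8% of tested genes for Ncan and 98.6% for Bcan. Tnr followed at 492 per kb in Ovp and 496 in Ctrl cortex, then Hapln1 at 273 and 264, and Hapln4 at 165 and 193. Tnc and Vcan lay close together, with Tnc at 60.1 per kb in Ovp and 50.9 in Ctrl cortex and Vcan at 55.8 in Ovp and 54.2 in Ctrl cortex. They exchanged places between the groups. In the 3 Ctrl libraries Tnc ranged from 48.5 to 54.2 per kb and Vcan from 51.2 to 58.9 per kb, so the ranges of these neighbours overlapped. The lowest levels per kb were those of Hapln2, at 31.7 in Ovp and 25.6 in Ctrl cortex, Acan, at 18.5 and 15.7, and Hapln3, at 12.1 and 9.62. In Ctrl libraries the ranges of these 3 genes did not overlap, at 24.1 to 27.0 per kb for Hapln2, 12.4 to 17.5 for Acan and 9.22 to 10.4 for Hapln3. In Ovp libraries Acan ranged from 14.0 to 25.1 per kb and overlapped Hapln3, at 8.81 to 15.0, while Hapln2, at 28.8 to 33.3, stood above both. Exon lengths are unions over annotated isoforms of GENCODE M21, so genes with long rarely used exons are placed too low.

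**Figure D1:**
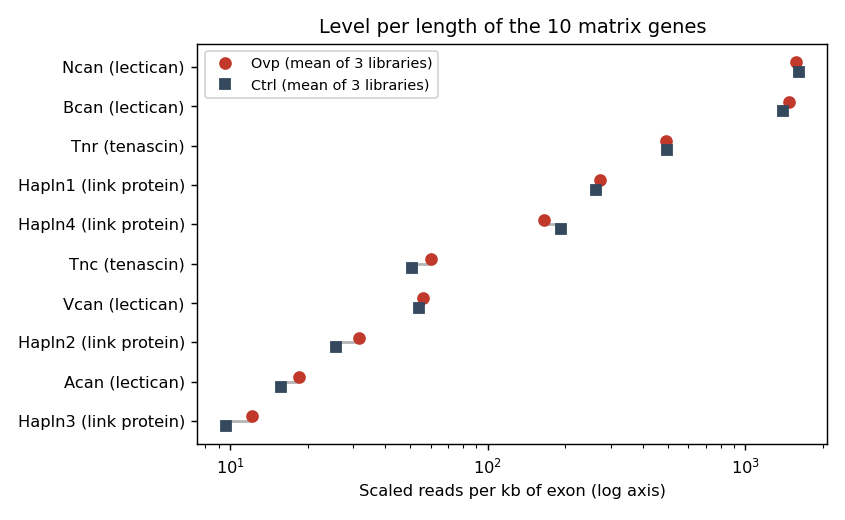
Mean scaled reads per kb of exon (log axis) of the 10 matrix genes in Ovp (circles) and Ctrl (squares) cortex, each the authors' mean of 3 libraries, ordered by the Ovp level. Ncan and Bcan stand highest, at 1567 and 1470 in Ovp cortex, and Hapln3 lowest, at 12.1, and the groups lie close together for every gene.

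The lecticans are large proteoglycans with a hyaluronan-binding end and a C-terminal end that binds tenascins. Ncan (ENSMUSG00000002341), which encodes neurocan, a lectican made by neurons and astrocytes and abundant in the young brain, had 11278 scaled reads in Ovp and 11590 in Ctrl cortex, a log2 fold change of -0.04. Bcan (ENSMUSG00000004892), which encodes brevican, a brain-specific lectican made largely by glia, had 5974 in Ovp and 5701 in Ctrl cortex, a log2 fold change of 0.07. Together they made up 97.6% of lectican reads per kb in Ovp and 97.7% in Ctrl cortex. Brevican mRNA took 47.2% of lectican reads per kb in Ovp and 45.5% in Ctrl cortex, and neurocan mRNA 50.4% in Ovp and 52.2% in Ctrl cortex. No spread between libraries can be given for these shares, since means of this size fit many combinations of whole reads.

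Vcan (ENSMUSG00000021614) encodes versican, whose splice forms differ in the stretch that carries chondroitin sulfate, and a gene-level value sums the juvenile and the mature forms. It had 806 scaled reads in Ovp and 784 in Ctrl cortex, a log2 fold change of 0.04 (p = 0.757 by the authors' deposited table). The Ctrl libraries A, B and C had 740, 761 and 851 scaled reads. For the Ovp mean 6 combinations of whole reads fitted. Only 2 of them kept every library within 1.5-fold of the mean, with values of 869, 667 and 883 or of 1118, 659 and 643. In either case the Ovp libraries spread on both sides of the Ctrl libraries. Gm4117, an antisense gene annotated within Vcan that shares no exon bases with it, had 165 scaled reads in Ovp and 142 in Ctrl cortex and is named after its value was seen.

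Acan (ENSMUSG00000030607) encodes aggrecan, the lectican that marks mature nets and is made by the net-bearing neurons themselves. Its 3 Ovp libraries A, B and C had 187, 104 and 123 scaled reads, and its Ctrl libraries had 128, 131 and 92.6. Ovp library A was the highest of all 6, the other Ovp libraries lay within the Ctrl range, and the groups overlapped. The mean was 138 ± 43.5 in Ovp and 117 ± 21.3 in Ctrl cortex (SD, n = 3 each). The log2 fold change was 0.24 from the group means, with p = 0.417 in the authors' deposited table. By limma on log2 of the recovered value plus 1 it was 0.21, with a 95% interval of -0.27 to 0.69 and an adjusted p of 0.999 over 9784 recovered genes, of which 0% passed. At an unadjusted p under 0.05 limma gave 2.13% of these genes and 0 of the 3 recovered members. Without Ovp library A the limma value was -0.03. Counts of 84 to 230 reads per library stood behind these values.

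**Figure D2:**
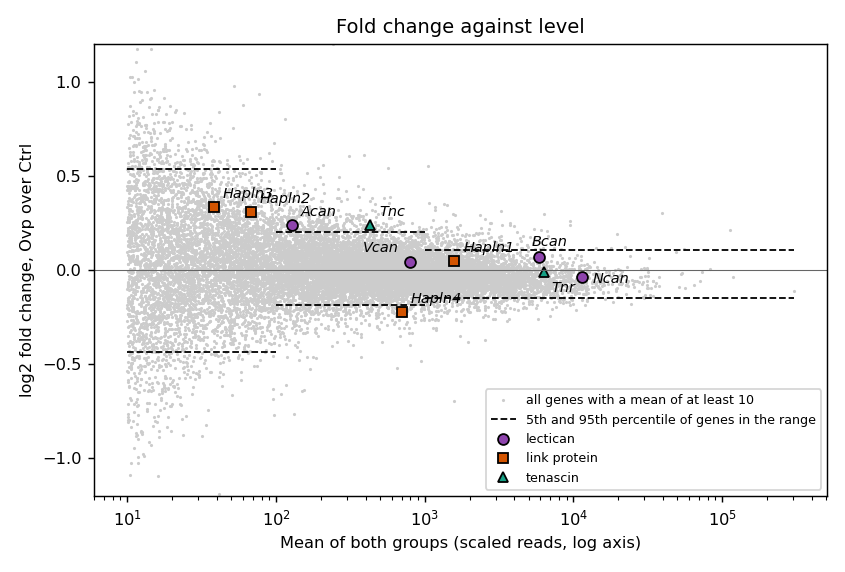
Log2 fold change of Ovp over Ctrl group means against the mean of both groups (log axis) for all genes with a mean of at least 10 (grey) and for the 10 matrix genes; dashed lines are the 5th and 95th percentiles of all genes with means of 10 to 100, 100 to 1000 and over 1000, and a few grey points beyond the vertical axis are not shown. Acan, Tnc and Hapln4 lie just outside the dashed lines of their range, and the other 7 members lie inside. By construction 5% of the genes in a range lie beyond each line. Acan, with a mean of 128, is near the low edge of its range, next to the range with lines at -0.44 and 0.53.

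The link proteins are small relatives of the lecticans' hyaluronan-binding end. Hapln1 (ENSMUSG00000021613), the link protein also known from cartilage and needed for dense nets in mice, had 1609 scaled reads in Ovp and 1556 in Ctrl cortex, a log2 fold change of 0.05. Hapln4 (ENSMUSG00000007594), a brain link protein that holds brevican in perineuronal nets, had 649 in Ovp and 756 in Ctrl cortex. Its log2 fold change of -0.22 was the lowest of the members (p = 0.419 by the authors' deposited table). Over the 7339 genes with means of 100 to 1000, the 5th and 95th percentiles of the log2 fold change were -0.18 and 0.20, so Hapln4 lay outside this band. Hapln4 values in Ctrl libraries A, B and C were 940, 703 and 624 scaled reads. For the Ovp mean 6 combinations fitted, of which 1 kept every library within 1.5-fold of the mean, with 764, 688 and 495 scaled reads in A, B and C. On these values the groups overlapped. Hapln1 took 56.6% of link protein reads per kb in Ovp and 53.6% in Ctrl cortex, and Hapln4 took 34.3% in Ovp and 39.2% in Ctrl cortex.

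Hapln2 (ENSMUSG00000004894), a link protein made by oligodendrocytes and found at nodes of Ranvier, was the one member with library values in both groups whose groups did not overlap. Its Ovp libraries A, B and C had 79.0, 78.1 and 68.3 scaled reads, and its Ctrl libraries had 61.1, 57.2 and 64.0. The lowest Ovp library thus stood above the highest Ctrl library, by a few reads, with 66 reads behind the one and 58 behind the other. Means were 75.1 ± 5.96 in Ovp and 60.8 ± 3.37 in Ctrl cortex (SD, n = 3 each). The groups failed to overlap in 1 of 3 members with recovered values, and in 7.14% of all 9784 recovered genes, 4.39% with the Ovp libraries above. An exact two-sided permutation test gave p = 0.1, the smallest that 3 against 3 libraries allow. By limma the log2 fold change was 0.30, with a 95% interval of -0.08 to 0.68 and an adjusted p of 0.999 by Benjamini-Hochberg, and no member passed.

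Markers of oligodendrocytes had slightly higher means in Ovp cortex as well. All 6 of the myelin markers Mbp, Mog, Mobp, Mag, Cnp and Mal were higher, with log2 fold changes of 0.08 to 0.13 and a summed level of 90105 scaled reads in Ovp and 83426 in Ctrl cortex. Of 14 further oligodendrocyte genes, listed after the data were seen, 11 had higher and 3 lower means, with a median log2 fold change of 0.02. Among these, Aspa had 125, 152 and 106 scaled reads in Ovp libraries A, B and C and 126, 152 and 118 in Ctrl libraries, and Opalin had 280, 342 and 246 in Ovp and 274, 280 and 271 in Ctrl libraries. Both were lowest in Ovp library C, as was Hapln2 within Ovp cortex, but both were highest in Ovp library B and Hapln2 in A. Within Ctrl cortex both were lowest in library C, where Hapln2 was highest. The groups overlapped in all 6 of these further genes that have library values in both groups. None of these genes passed the threshold in the authors' deposited table. In bulk tissue fewer or more cells of a type and less or more RNA per cell cannot be told apart, and the part of oligodendrocyte number in the Hapln2 value was not tested.

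Hapln3 (ENSMUSG00000030606), the most widely expressed link protein outside the brain, had the largest log2 fold change of the members, 0.34 from the group means (p = 0.323 by the authors' deposited table). Its Ovp libraries A, B and C had 31.0, 44.2 and 52.8 scaled reads, and its Ctrl libraries had 32.6, 32.4 and 36.4. The Ovp libraries ran from below to above all Ctrl libraries, so the groups overlapped. By limma the log2 fold change was 0.30, with a 95% interval of -0.24 to 0.83 and an adjusted p of 0.999. Only 30 to 51 reads per library stood behind the values, and for genes with means of 10 to 100 the 5th and 95th percentiles of the log2 fold change were -0.44 and 0.53.

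**Figure D3:**
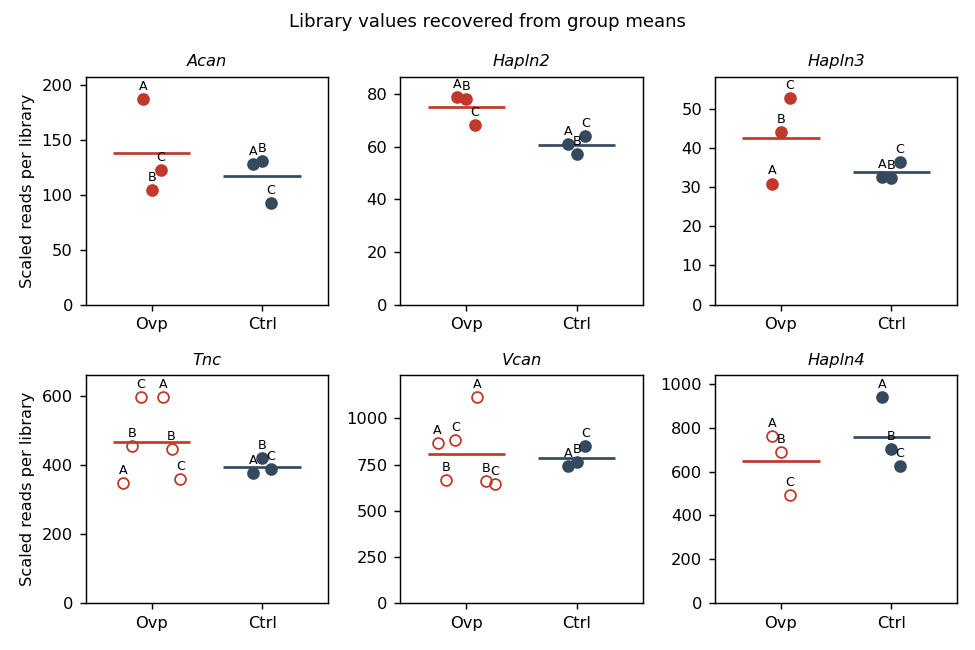
Scaled reads per library, recovered from the group means, for 6 matrix genes in Ovp (left in each panel) and Ctrl (right) cortex; filled points come from the only combination of whole reads that fitted, open points from each combination with every library within 1.5-fold of the mean, set side by side where there are 2, and lines are group means. The groups do not overlap for Hapln2, with 68.3 to 79.0 in Ovp and 57.2 to 64.0 in Ctrl libraries, and they overlap in the other 5 panels.

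Tenascins are large oligomeric glycoproteins, and tenascin-R, the trimer made by oligodendrocytes and some neurons, is the crosslinker of mature nets. Tnr (ENSMUSG00000015829) had 6336 scaled reads in Ovp and 6384 in Ctrl cortex, a log2 fold change of -0.01 whose sign turned under both other scalings. Tnc (ENSMUSG00000028364), which encodes tenascin-C, the hexamer that astrocytes make in the young brain, had 467 scaled reads in Ovp and 395 in Ctrl cortex, a log2 fold change of 0.24 (p = 0.395 by the authors' deposited table). Its Ctrl libraries A, B and C had 377, 421 and 388 scaled reads. Exactly 2 combinations fitted the Ovp mean, with 348, 455 and 598 or with 596, 446 and 358 in A, B and C. In both, 1 Ovp library was below and 2 were above all Ctrl libraries, and the Ovp libraries spread by a SD of 121 or 126 scaled reads, against 23.1 in Ctrl libraries. Tnc stood above the 95th percentile of genes with means of 100 to 1000, which was 0.20, while its groups overlapped. Reads per kb of Tnr were 8.20 times those of Tnc in Ovp and 9.75 times in Ctrl cortex. A transcript on the other strand, 8030451A03Rik, shares 176 exon bases with Tnc and had 3.09 scaled reads in Ovp and 1.78 in Ctrl cortex.

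The balance of juvenile and mature matrix genes was close between the groups. The juvenile genes Ncan, Vcan, Tnc and Hapln1 summed to 14160 scaled reads in Ovp and 14326 in Ctrl cortex, and the mature genes Acan, Bcan, Tnr, Hapln2 and Hapln4 summed to 13173 in Ovp and 13019 in Ctrl cortex. The log2 ratio of these sums was 0.10 in Ovp and 0.14 in Ctrl cortex, a difference of -0.03. Here scaled reads were not divided by exon length, unlike the levels per kb above. The sign of a ratio within a group is therefore not a result about transcript levels. Hapln1 also belongs to dense nets, and without it the log2 ratio was below 0 in both groups, at -0.07 in Ovp and -0.03 in Ctrl cortex, a difference of -0.04. With every gene given equal weight, the difference between mean log2 values of juvenile and mature genes was 1.09 in Ovp and 1.09 in Ctrl cortex. Members of each set went both ways. Among the juvenile genes Tnc had the log2 fold change 0.24 and Ncan -0.04, and among the mature genes Acan had 0.24 and Hapln4 -0.22. These sums have no library spread, since their most abundant members could not be recovered by library.

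Each lectican gene has a link protein gene as its neighbour, an arrangement known in mouse and human. In GENCODE M21 on GRCm38 the pairs were Acan and Hapln3 on chromosome 7, Bcan and Hapln2 on chromosome 3, Ncan and Hapln4 on chromosome 8, and Vcan and Hapln1 on chromosome 13. Group differences had the same sign within all 4 pairs, a pattern seen after the values were known. The log2 fold changes were 0.24 and 0.34 for Acan and Hapln3, 0.07 and 0.31 for Bcan and Hapln2, -0.04 and -0.22 for Ncan and Hapln4, and 0.04 and 0.05 for Vcan and Hapln1. Over 11424 neighbouring protein-coding pairs with means of at least 10, the share with the same sign was 51.7%. Library values did not run together in the pair recovered in both groups. Within Ovp cortex Acan was highest and Hapln3 lowest in library A. These 2 genes point towards each other with 2 bases between their annotated ends, and no source used here says whether reads were counted by strand.

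The promoters of the pairs are separate, and those of Acan, Hapln3, Bcan and Hapln2 are shown because these pairs hold the 3 genes with values in every library. The annotated starts lie 77792 bases apart for Acan and Hapln3 and 27155 bases apart for Bcan and Hapln2. The sequences are the 250 bases before each gene's start, from RefSeq on GRCm38.p6, 5′ to 3′ on the strand of the gene, with every CG dinucleotide in capitals.
Acan (GRCm38.p6, chr7:79052976-79053225, plus strand): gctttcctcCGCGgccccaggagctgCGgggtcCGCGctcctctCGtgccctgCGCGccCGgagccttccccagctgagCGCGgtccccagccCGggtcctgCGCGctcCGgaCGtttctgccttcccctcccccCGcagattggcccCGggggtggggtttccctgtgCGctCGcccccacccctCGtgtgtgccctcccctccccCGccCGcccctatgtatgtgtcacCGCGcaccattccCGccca
Hapln3 (GRCm38.p6, chr7:79131019-79131268, minus strand): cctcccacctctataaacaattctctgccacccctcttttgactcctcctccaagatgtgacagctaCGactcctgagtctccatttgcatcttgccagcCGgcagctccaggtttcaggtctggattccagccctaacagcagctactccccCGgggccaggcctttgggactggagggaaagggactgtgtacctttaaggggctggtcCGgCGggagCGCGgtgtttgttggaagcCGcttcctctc
Bcan (GRCm38.p6, chr3:88000357-88000606, minus strand): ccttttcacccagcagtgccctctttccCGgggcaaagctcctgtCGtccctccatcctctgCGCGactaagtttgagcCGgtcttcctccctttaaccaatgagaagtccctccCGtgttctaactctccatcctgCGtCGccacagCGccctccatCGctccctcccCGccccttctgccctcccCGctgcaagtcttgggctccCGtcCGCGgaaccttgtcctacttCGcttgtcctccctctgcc
Hapln2 (GRCm38.p6, chr3:88027512-88027761, minus strand): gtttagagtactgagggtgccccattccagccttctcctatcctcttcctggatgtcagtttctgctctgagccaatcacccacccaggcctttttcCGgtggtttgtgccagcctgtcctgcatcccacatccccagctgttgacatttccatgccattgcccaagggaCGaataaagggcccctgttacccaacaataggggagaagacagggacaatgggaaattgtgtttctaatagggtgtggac
The Acan stretch holds 26 CG dinucleotides and has 74.4% G and C bases, and the Bcan stretch holds 16 with 62.0%. The link protein stretches hold fewer, 8 with 58.0% for Hapln3 and 2 with 52.4% for Hapln2, where the median over all 32851 promoters was 6 with 52.4%. Since β-catenin acts in the nucleus through TCF and LEF factors, the core sequences CTTTGAA and CTTTGAT, and also CTTTGTA and CTTTGTT, were searched on both strands of 300 bases, which add 50 bases after the start. Windows were given for 9 of the 10 members, 10 windows in all with 2 overlapping ones for Tnc, and 0 of them held any of these cores. Among all promoters the share was 16.9%, so that 0 of 10 windows is a description of these letters in these windows only.

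Genes that make or modify the rest of the matrix were counted from lists chosen with earlier results of these data known. None of their members passed the threshold by the authors' deposited table, and none reached an unadjusted p under 0.05. The other chondroitin sulfate proteoglycans had lower Ovp means for 7 of 8 genes, with a median log2 fold change of -0.06. Spock2, a testican of the brain matrix, had 18903 scaled reads in Ovp and 20181 in Ctrl cortex, and Spock1, its relative, had 7041 in Ovp and 7016 in Ctrl cortex. Of 23 genes for chondroitin sulfate synthesis and breakdown 6 had higher and 17 lower means in Ovp cortex, with a median log2 fold change of -0.03. Fam20b, the kinase that primes the linker sugar, had 1760 scaled reads in Ovp and 1819 in Ctrl cortex. Xylt1, which starts the chains, had 1543 in Ovp and 1756 in Ctrl cortex.

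Hyaluronan genes, matrix proteases and receptors of the net were likewise without a call. Of 12 genes for hyaluronan synthesis, turnover and receptors 7 had higher and 5 lower means in Ovp cortex, with a median log2 fold change of 0.12, where 47.8% of tested genes above 0 in both groups were higher. Their summed level was lower in Ovp cortex, at 2772 scaled reads in Ovp and 2898 in Ctrl cortex. The most abundant were Cemip, at 1610 scaled reads in Ovp and 1726 in Ctrl cortex, and Cemip2, at 569 and 601, both tied to hyaluronan breakdown. Of 17 proteases and inhibitors, 16 were above 0 in both groups, and 11 of these had higher and 5 lower means, with a median of 0.08. Timp2, an inhibitor of matrix metalloproteinases, had 6258 scaled reads in Ovp and 5940 in Ctrl cortex, and Plat, tissue plasminogen activator, had 943 in Ovp and 894 in Ctrl cortex. Of 15 ligands and receptors that bind the net 5 had higher and 10 lower means, with a median of -0.09. Nptxr, a receptor for neuronal pentraxins, had 20012 scaled reads in Ovp and 19930 in Ctrl cortex, and Ptprs, a receptor for chondroitin sulfate, had 11529 in Ovp and 11106 in Ctrl cortex. The other tenascins Tnxb and Tnn had 116 and 6.32 scaled reads in Ovp and 123 and 10.7 in Ctrl cortex.

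Markers of the cells that bear or make the net were set beside these values. Of 8 genes listed as markers of fast-spiking interneurons, 7 had lower means in Ovp cortex and 1 higher. Not all are specific to these cells, since Gad1 is shared by other interneurons. The median log2 fold change was -0.13 and the range -0.21 to 0.08. The summed level was 12250 scaled reads in Ovp and 13467 in Ctrl cortex, of which Gad1 had 3780 and 4149. Lower means were not particular to this list. All 5 excitatory neuron markers counted were lower too, with a median of -0.06, as were 6728 of the 11645 genes with a mean of at least 100. The excitatory markers include Neurod6, whose locus carries Nex-Cre, with a log2 fold change of -0.70. Pvalb had 670 in Ovp and 773 in Ctrl cortex, and its Ctrl libraries A, B and C had 1000, 613 and 706. Syt2 had 803 scaled reads in Ovp and 912 in Ctrl cortex, and its Ctrl libraries had 1015, 810 and 910. Kcns3 had 140, 154 and 116 scaled reads in Ovp libraries A, B and C and 147, 154 and 122 in Ctrl libraries, and Tac1 had 281, 386 and 355 in Ovp and 281, 309 and 374 in Ctrl libraries, so both overlapped between the groups. Of these 4 markers, all those with Ctrl library values, Pvalb and Syt2 were highest in Ctrl library A, as was Hapln4, while Kcns3 was highest in B and Tac1 in C. The lowest Ctrl library was B for Pvalb and Syt2 but C for Hapln4. The part of fast-spiking cells in the Hapln4 value was not tested. Of 7 astrocyte markers 3 had higher and 4 lower means, with a median of -0.05, and of 6 oligodendrocyte precursor markers 4 were higher and 2 lower, with a median of 0.005. None of these markers passed the threshold in the authors' deposited table.

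Markers of vessels, microglia and tissue around the cortex were also counted. Of 5 endothelial and mural markers 2 had higher and 3 lower means in Ovp cortex, with a median log2 fold change of -0.01, and of 5 microglia markers 3 were higher and 2 lower, with a median of 0.04. Of 6 meningeal fibroblast markers 1 was higher and 5 lower, with a median of -0.05. Of 5 choroid plexus markers 1 was higher and 4 lower, with a median of -0.35, and they summed to 203 scaled reads in Ovp and 376 in Ctrl cortex. Most of this sum was Ttr, with 713 scaled reads in Ctrl library B and 76.4 to 170 in the other 5 libraries. Among the 6 members with Ctrl library values, library B was the highest for Acan and Tnc, the lowest for Hapln2 and Hapln3 and in the middle for Vcan and Hapln4.

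**Figure D4:**
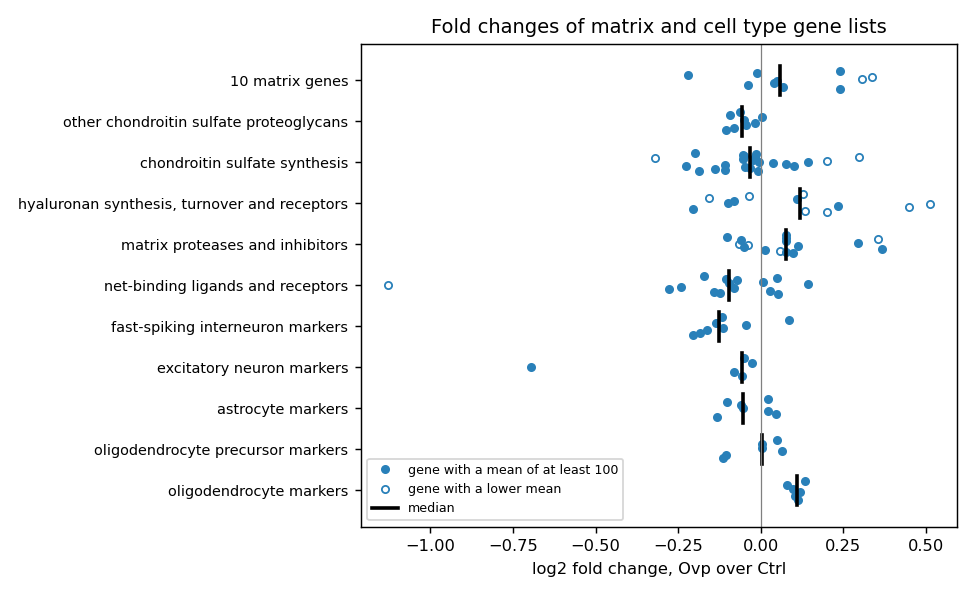
Log2 fold change of Ovp over Ctrl group means for each gene above 0 in both groups (filled at a mean of at least 100, open below) in 11 of the gene lists, with the median of each list as a bar; the other tenascins, the further oligodendrocyte genes and the endothelial, meningeal, microglia and choroid plexus markers are not drawn. The medians drawn run from -0.13 for fast-spiking interneuron markers to 0.12 for hyaluronan genes, and the lone point at -1.13 is Otx2, with under 2 scaled reads in both groups.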

How the data were processed

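Per the labels' protocols, RNA was extracted with Trizol and made into Illumina TruSeq RNA libraries. The submitters' processing notes list Bowtie2 2.0.6 with TopHat2 2.0.9. For build, annotation, read counter, strand setting and test, the choice made by the authors is not given in the sources used here. As deposited, the signal was 1 value per gene and group, read from the values as the mean over 3 libraries of read counts, each first divided by its library's scaling factor. The authors also deposited p-values, raw and adjusted, and members were called at an adjusted p under 0.05 over all 30152 tested genes. Fold changes are log2 of the Ovp over the Ctrl mean. Of 47794 IDs 46488 had a symbol.

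Library values were recovered by matching each group mean, at 10 significant digits, to whole reads of 3 libraries, with 1 combination for 99.4% of 21303 Ovp means up to 450 and 99.9% of 23575 Ctrl means up to 1000. Above 100 in Ovp and 500 in Ctrl only library values within 2-fold of the mean were searched, except for the members, where all combinations were listed up to 1000. Scaling factors were 1.23, 1.06 and 0.966 for Ovp and 0.982, 0.926 and 0.907 for Ctrl libraries A, B and C. On log2 of the value plus 1, limma 3.58.1 (R 4.3.3) used a mean-variance trend over 9784 recovered genes, 57.2% of those whose mean reached 10, and p-values were adjusted by the Benjamini-Hochberg method. Recovery and fit were tested on simulated data. The members and lists were chosen with earlier results of these data known. Named genes were all members and the 2 genes with the highest mean in each matrix list; marker genes and others were named after their values were seen. Alternatives covered the pseudocount, the filter, the scaling, the summary, each library left out and subsets of the members. Some marker genes of the lists are not reported here.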

Additional observations from a re-analysis of the deposited data

How the results depend on the processing

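The count of members past the threshold was 0 of 10 under both stricter filters of the authors' table. It was 0 of the 3 recovered members under all 9 alternatives of the limma fit, where the smallest adjusted p of a member stayed at 0.992 or above. Since 0 of 30152 tested genes and 0 of 9784 recovered genes passed in the main settings, these counts show nothing particular to the members. With 1 library left out the limma count of members was 0 at the lowest and 0 at the highest. The median log2 fold change of the members was 0.06 and lay between 0.04 and 0.18 over 10 alternatives. Both ends came from subsets of the members, 0.04 without Hapln2 and Hapln3 and 0.18 for the link proteins only. Changes of pseudocount, filter, scaling or summary gave 0.06 to 0.10. The difference of juvenile and mature matrix genes was -0.03 and lay between -0.04 and -0.003 over 5 alternatives, some of which left out 1 gene. The recovered log2 fold change of Acan was 0.21, but -0.02994 without Ovp library A, and by library left out it ran from -0.02994 to 0.389; in this case the sign rested on that library, and why it is high was not tested. For Hapln2 it ran from 0.26 to 0.37 and for Hapln3 from 0.13 to 0.51. No paired analysis was possible because the deposited columns are group means and the recovered libraries carry no replicate number. The fewest reads stood behind Hapln2 and Hapln3, and the size of the means limits recovery of Ncan, Bcan, Tnr and Hapln1.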
